A study of Homo sapiens with 6 samples.

Results

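The genes described here are those that encode the integrin α and β subunits and the laminin α, β and γ chains. They were chosen by symbol, as protein-coding genes whose names begin with ITGA, ITGB, LAMA, LAMB or LAMC followed by the number or letter of a subunit. This gave 36 of the 32299 genes in the deposited table: 16 integrin α genes, 8 integrin β genes and 12 laminin chain genes. ITGAL, an integrin α subunit of leukocytes, was left out because its row carries no protein-coding type, and ITGA8 was not analysed here. Expression was measured by paired-end sequencing of poly(A) RNA from U87, an established human glioblastoma cell line, in 6 libraries. The labels assign 3 of them to transfection with a control vector and 3 to overexpression of tau, a microtubule-binding protein. The labels name no vector type, clone, culture or time of harvest for any of the 6 libraries. The p-values therefore reflect how much these libraries vary, and that variation may be technical.

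Integrins are receptors that span the cell membrane and couple the extracellular matrix to the actin cytoskeleton. Each is a pair of 1 α and 1 β subunit, and the pair decides the ligand: some pairs bind laminins, some bind collagens, some bind the arginine-glycine-aspartate motif of fibronectin and vitronectin, and some are found mainly on leukocytes. Laminins are secreted trimers of an α, a β and a γ chain that form the core of basement membranes and are themselves bound by integrins. In glioma, the cells use both families when they attach to and move along blood vessels and matrix.

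The RNA of the overexpressed gene ran against the labels. MAPT, which encodes tau, was counted 279, 391 and 345 times in the libraries labelled control and 145, 150 and 176 times in those labelled tau, in the order of their numbers 1, 2 and 3. It was 2.30-fold lower in the tau-labelled libraries (log2 fold change -1.20, SE 0.21, edgeR adjusted p = 0.00151). The libraries are therefore called by their labels, and each direction given is that of the libraries labelled tau relative to those labelled control. Whether labels were exchanged, or the construct's transcript was not among what was counted, cannot be told from the table, and the directions hold for the labels only. Total counts ran from 58229083 to 65512119 per library. A gene is said to have risen or fallen where edgeR's quasi-likelihood test gave a Benjamini-Hochberg adjusted p below 0.05 over the 17927 genes with enough counts to be tested. By that rule 3822 genes rose (21.3%) and 3830 fell (21.4%), 42.7% in either direction. Levels are given as FPKM, read fragments scaled by gene length and library size. Genes are compared with each other on that scale, which holds only as far as the gene lengths behind it do. Of 11 markers of glioma and astrocytes, 6 reached 1 FPKM in a group. Their summed level was 1676 to 1760 FPKM in control-labelled and 1885 to 1987 FPKM in tau-labelled libraries. VIM, the intermediate filament vimentin, made up most of it (1346 ± 36.3 and 1784 ± 54.7 FPKM, SD, n = 3 each), and CHI3L1, a secreted glycoprotein, followed in control-labelled libraries at 277 ± 10.6 against 45.6 ± 4.48 FPKM. The astrocyte gene GFAP had 0.136 ± 0.00633 and 0.0595 ± 0.0240 FPKM, and S100B, SOX2, FABP7 and PTPRZ1 were at or near 0. The sum thus follows VIM more than the list. Of the 11 markers 7 were tested, and 2 of them rose, 4 fell and 1 did not pass (median log2 fold change -1.21). VIM and EGFR rose, CHI3L1, NES, SLC1A3 and GFAP fell, and CD44 did not pass.

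Of the 36 integrin and laminin genes, 31 had enough counts to be tested. Among these 31, 7 rose, 12 fell and 12 did not pass, beside a background of 21.3% of all tested genes rising and 21.4% falling. The median log2 fold change of the 31 genes was -0.55, and that of all tested genes was 0.00. The FPKM values of the groups did not overlap for 21 of the 31, against 56.1% of all tested genes. The number of genes that rose is close to the background share and the number that fell lies above it. Among the 19 genes with a mean of at least 1 FPKM in a group, 5 rose, 11 fell and 3 did not pass, beside 27.7% rising and 24.4% falling among all 11669 genes at that level. The 3 kinds of gene differed in their counts: 2 of 7 tested β subunits rose and 0 fell, 3 of 13 α subunits rose and 8 fell, and 2 of 11 laminin chains rose and 4 fell. These counts rest on edgeR's test, and a difference between the 3 kinds was not tested. For the 5 untested and the other low genes, fewer cells with the transcript and less transcript per cell cannot be told apart in bulk RNA.

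**Figure D1:**
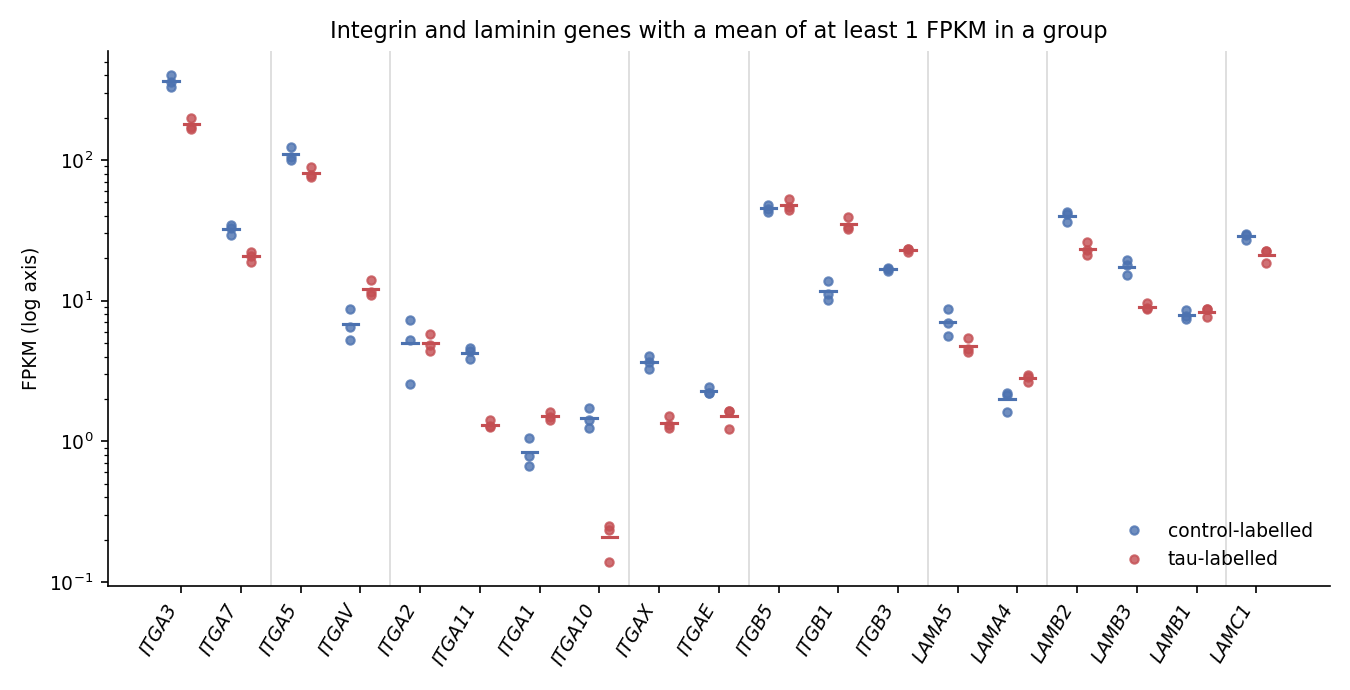
Level of each integrin and laminin gene with a mean of at least 1 FPKM in a group, on a log axis of FPKM, with 1 point per library and a bar at each group's mean. Genes are grouped by role. ITGA3 stands highest in all 6 libraries, ITGB1 is higher and ITGA10 lower in every tau-labelled library than in any control-labelled one, and the points of ITGA2, ITGB5 and LAMB1 overlap.

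**Figure D2:**
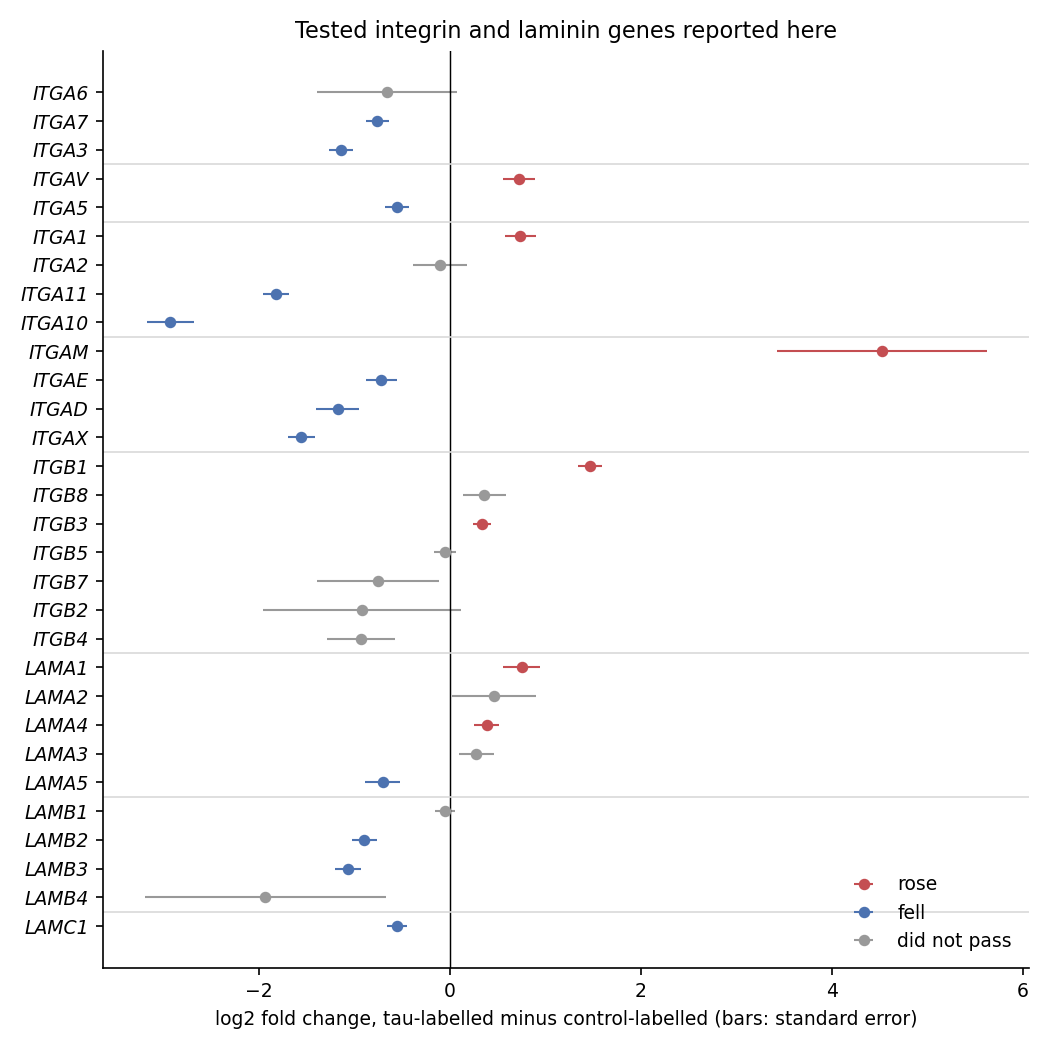
Log2 fold change of the tested genes reported here, tau-labelled minus control-labelled, with bars for the standard error of edgeR's fit, coloured by whether the gene rose, fell or did not pass. ITGAM has the highest value, 4.52, on 3 against 82 counts, and ITGA10 the lowest, -2.92.

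ITGB1, the β subunit shared by the largest number of integrin pairs, including the main laminin, collagen and fibronectin receptors, rose furthest of the genes above 1 FPKM. ITGB1 (ENSG00000150093, chr10:32887273-33005792 on GRCh38, minus strand) had 10.05, 11.2 and 13.9 FPKM in control-labelled libraries 1, 2 and 3, against 33.5, 39.1 and 32.2 FPKM in tau-labelled libraries 1, 2 and 3. The lowest tau-labelled library lay well above the highest control-labelled one, library 3. The means were 11.7 ± 1.96 and 35.0 ± 3.70 FPKM (SD, n = 3 each), a 2.76-fold rise by edgeR's fit (log2 fold change 1.47, SE 0.12, adjusted p = 3.2e-05). With the GC content and length of the genes modelled as an offset, the log2 fold change of ITGB1 was 0.86 (SE 0.06, edgeR adjusted p = 7.59e-06).

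Some reads of ITGB1 cannot be assigned to it alone. ITGB1P1 is a processed pseudogene of 609 bases at chr19:14621634-14622242 on the minus strand, and all 609 bases are identical to ITGB1's coding sequence, so a read of 150 bases from that stretch fits both. A stretch of 60 bases, from base 1786 of the ITGB1 coding sequence, shows the identity on which this rests, in the GENCODE 29 transcripts:
ITGB1: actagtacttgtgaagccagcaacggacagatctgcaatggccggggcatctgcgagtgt
ITGB1P1: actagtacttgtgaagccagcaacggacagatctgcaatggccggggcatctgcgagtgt
ITGB1P1 was counted 327, 418 and 446 times in control-labelled and 1145, 1224 and 1254 times in tau-labelled libraries 1, 2 and 3, and rose as ITGB1 did (log2 fold change 1.52, SE 0.16, edgeR adjusted p = 9.27e-05). Its counts came to 3.50% ± 0.419 of those of ITGB1 in control-labelled and 3.63% ± 0.199 in tau-labelled libraries (SD, n = 3 each). Which of the 2 loci these reads came from was not tested. Adding them to ITGB1 left its log2 fold change at 1.47 (SE 0.12, edgeR adjusted p = 3.05e-05).

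A noncoding gene that starts beside ITGB1 on the other strand also rose. ITGB1-DT had 0.238, 0.2999 and 0.284 FPKM in control-labelled and 1.196, 1.12 and 1.08 FPKM in tau-labelled libraries 1, 2 and 3 (log2 fold change 1.92, SE 0.21, edgeR adjusted p = 0.000123). Its annotated span overlaps that of ITGB1 by 47356 bases on the opposite strand. The library kit marked strand, but whether the counting used it is not given in the sources used here, so reads in the overlap cannot be told apart. ITGB1 had 34226 counts in the control-labelled libraries together and ITGB1-DT had 70 to 81 per library there.

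The promoter windows of the 3 genes above 1 FPKM with the smallest adjusted p, ITGA11, ITGB1 and ITGA10, are shown because these genes carry the clearest changes in both directions. Each runs from 250 bases before to 50 bases after a transcription start in RefSeq (GRCh38.p14), 5′ to 3′ on the gene's strand. Capitals mark matches, on either strand, to the motifs searched: GGGCGG, bound by SP factors; ACGTG, the core bound by hypoxia-inducible and other bHLH factors; and TGANTCA, bound by AP-1.
ITGB1 (chr10:32958181-32958480, minus strand): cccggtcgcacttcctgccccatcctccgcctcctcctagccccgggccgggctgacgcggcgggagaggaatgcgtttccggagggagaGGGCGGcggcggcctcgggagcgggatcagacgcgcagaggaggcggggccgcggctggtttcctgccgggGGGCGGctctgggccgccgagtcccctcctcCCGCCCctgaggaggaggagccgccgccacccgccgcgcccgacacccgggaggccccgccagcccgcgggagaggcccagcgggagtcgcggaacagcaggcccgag
ITGA11 (chr15:68432114-68432413, minus strand): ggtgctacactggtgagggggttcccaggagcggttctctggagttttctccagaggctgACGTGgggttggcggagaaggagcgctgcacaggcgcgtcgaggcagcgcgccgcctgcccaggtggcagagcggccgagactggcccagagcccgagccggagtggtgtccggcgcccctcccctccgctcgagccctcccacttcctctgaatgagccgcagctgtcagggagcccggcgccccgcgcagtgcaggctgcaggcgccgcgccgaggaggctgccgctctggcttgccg
ITGA10 (chr1:145910001-145910300, minus strand): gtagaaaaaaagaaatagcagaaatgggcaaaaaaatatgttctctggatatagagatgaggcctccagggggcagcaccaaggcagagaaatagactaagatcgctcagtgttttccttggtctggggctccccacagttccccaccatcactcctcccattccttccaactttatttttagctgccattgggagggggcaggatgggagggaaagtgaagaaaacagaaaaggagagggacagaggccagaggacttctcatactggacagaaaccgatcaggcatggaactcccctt
The ITGB1 window printed is 78.3% G and C with 39 CpG pairs and 3 GGGCGG matches, and ITGB1-DT starts within it. A second ITGB1 start in the table (chr10:32935509-32935808, not printed) has a window of 40.7% G and C with 4 CpG pairs and 0 matches. The ITGA11 window is 72.0% G and C with 29 CpG pairs and 1 ACGTG match. The ITGA10 window is 48.7% G and C with 2 CpG pairs and holds 0 matches to the 3 motifs. Promoters were at hand for 25 of the 36 genes, 32 windows in all. Of these 32 windows, 18 held GGGCGG (56.3%), 3 held ACGTG (9.38%) and 3 held TGANTCA (9.38%), beside 44.9%, 21.4% and 7.73% of 34796 windows of the same length over all genes. GGGCGG was found in 2 of the 7 windows of genes that rose and in 7 of the 10 windows of genes that fell. It was also in 9 of the 12 windows of genes that did not pass and in 0 of the 3 of untested genes. Some genes, such as LAMB3, ITGB1 and ITGAV, have more than 1 window, so windows are not separate genes. A match shows only that the letters are there.

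ITGB3 pairs with αV, and with αIIb on platelets, as a receptor for vitronectin and fibrinogen. ITGB3 (ENSG00000259207, chr17:47253827-47313743, plus strand) had 16.8, 16.3 and 17.04 FPKM in control-labelled and 23.3, 23.3 and 22.1 FPKM in tau-labelled libraries 1, 2 and 3. The groups did not overlap, and the spread within each was small. ITGB3 rose 1.26-fold by edgeR's fit (log2 fold change 0.34, SE 0.09, adjusted p = 0.0169). The call was lost without control-labelled library 2 (log2 fold change 0.31, edgeR adjusted p = 0.0999) and without control-labelled library 3 (0.31, edgeR adjusted p = 0.0522). It was also lost without tau-labelled library 1 (0.33, edgeR adjusted p = 0.0673) and without tau-labelled library 2 (0.34, edgeR adjusted p = 0.0625). With length as an offset the log2 fold change of ITGB3 was 0.23 and the call was lost (edgeR adjusted p = 0.0630).

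ITGB5, another partner of αV, was the β subunit with the highest mean FPKM in both groups. ITGB5 (ENSG00000082781, chr3:124761948-124901418, minus strand) had 48.0, 45.1 and 43.0 FPKM in control-labelled and 43.8, 46.3 and 52.4 FPKM in tau-labelled libraries 1, 2 and 3. The groups overlapped, and ITGB5 did not pass (log2 fold change -0.05, SE 0.12, edgeR adjusted p = 0.760). Its sign turned under 7 other settings. In the control-labelled libraries the order of the β subunits was ITGB5 at 45.4 ± 2.51, ITGB3 at 16.7 ± 0.387 and ITGB1 at 11.7 ± 1.96 FPKM (SD, n = 3 each). In the tau-labelled libraries it was ITGB5 at 47.5 ± 4.42, ITGB1 at 35.0 ± 3.70 and ITGB3 at 22.9 ± 0.674 FPKM. No library of one neighbour in either order reached the level of the next. These levels and their order rest on the gene length that the deposited counts and FPKM imply. For ITGB1 it is 15678 bases, whereas the ITGB1 transcript compared above has 3784 bases. By counts, ITGB1 lay above ITGB5 in tau-labelled libraries 1, 2 and 3 (31404, 35782 and 32845 against 18338, 18945 and 23929). In the control-labelled libraries it lay below ITGB5 by counts, and in every library above ITGB3.

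The other 5 β subunits stayed below 1 FPKM in both groups. ITGB8, a subunit that pairs with αV and binds latent TGF-β, had 0.304 ± 0.0491 and 0.424 ± 0.114 FPKM (SD, n = 3 each) and did not pass (log2 fold change 0.36, SE 0.23, edgeR adjusted p = 0.229). ITGB4, the partner of α6 in hemidesmosomes, had 0.181 ± 0.0373 and 0.101 ± 0.0305 FPKM without overlap and did not pass (log2 fold change -0.93, SE 0.36, edgeR adjusted p = 0.0592), though it passed as a fall with length as an offset (edgeR adjusted p = 0.0359). GALK1, with 1864 to 3111 counts per library, overlaps ITGB4 by 6225 bases on the opposite strand, so the few reads of ITGB4 there are uncertain. ITGB2, the β subunit of leukocyte integrins, had 37 counts in control-labelled and 21 in tau-labelled libraries together. ITGB7, found on lymphocytes, had 61 and 39. ZNF740, with 2100 to 3470 counts per library, overlaps ITGB7 by 3820 bases on the opposite strand, with the same limit. ITGB6, an epithelial subunit, had 0 counts in the control-labelled libraries and 15 in 1 tau-labelled library, number 1, and was not tested.

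The α subunits that bind laminins held most of the α subunit RNA, and the main one fell. ITGA3, which pairs with β1 as a receptor for the laminins that carry an α3 or α5 chain, was the most abundant gene of the 36. ITGA3 (ENSG00000005884, chr17:50055968-50090480, plus strand) had 401, 361 and 328 FPKM in control-labelled and 171, 167 and 200 FPKM in tau-labelled libraries 1, 2 and 3. All 3 tau-labelled libraries lay far below the lowest control-labelled one. The means were 363 ± 36.7 and 179 ± 18.0 FPKM (SD, n = 3 each), a 2.199-fold fall by edgeR's fit (log2 fold change -1.14, SE 0.12, adjusted p = 0.000127).

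ITGA7, the laminin receptor subunit best known from muscle, also fell. ITGA7 (ENSG00000135424, chr12:55684568-55716037, minus strand) had 34.6, 32.7 and 29.2 FPKM in control-labelled and 18.9, 20.7 and 22.3 FPKM in tau-labelled libraries 1, 2 and 3, with no overlap. Its log2 fold change was -0.76 (SE 0.12, edgeR adjusted p = 0.00102). ITGA6, whose protein with β1 or β4 is a laminin receptor linked to stem-like glioma cells, was nearly absent. ITGA6 had 66 counts in control-labelled and 44 in tau-labelled libraries together, and did not pass (edgeR adjusted p = 0.508).

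The 2 abundant α subunits that recognise the arginine-glycine-aspartate motif moved in opposite directions. ITGA5, the α subunit of the fibronectin receptor, fell. ITGA5 (ENSG00000161638, chr12:54395261-54419266, minus strand) had 124, 105 and 99.8 FPKM in control-labelled and 78.7, 76.2 and 88.9 FPKM in tau-labelled libraries 1, 2 and 3. The groups did not overlap, though tau-labelled library 3 came near control-labelled library 3. The fall was 1.47-fold by edgeR's fit (log2 fold change -0.55, SE 0.13, adjusted p = 0.00638).

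ITGAV, the αV subunit that pairs with β1, β3, β5, β6 and β8, rose. ITGAV (ENSG00000138448, chr2:186590056-186680901, plus strand) had 5.24, 6.53 and 8.69 FPKM in control-labelled and 10.9, 14.0 and 11.6 FPKM in tau-labelled libraries 1, 2 and 3. Control-labelled library 3 was the highest of its group, and the groups did not overlap. The rise was 1.65-fold by edgeR's fit (log2 fold change 0.72, SE 0.17, adjusted p = 0.00668). With GC content and length as an offset, the log2 fold change of ITGAV was 0.19 and it no longer passed (edgeR adjusted p = 0.0871). ITGA2B, the αIIb subunit of platelets, had 3 counts in control-labelled and 0 in tau-labelled libraries and was not tested.

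Among the 4 collagen-binding α subunits, which all pair with β1, 2 fell, 1 rose and 1 did not pass. ITGA10, known from cartilage, fell further than any other tested gene of the 36. ITGA10 (ENSG00000143127, chr1:145891208-145910111, minus strand) had 1.25, 1.73 and 1.41 FPKM in control-labelled and 0.250, 0.234 and 0.139 FPKM in tau-labelled libraries 1, 2 and 3. Every tau-labelled library was far below every control-labelled one. The fall was 7.58-fold by edgeR's fit (log2 fold change -2.92, SE 0.25, adjusted p = 3.35e-05).

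ITGA11, a collagen receptor subunit of fibroblasts, also fell. ITGA11 (ENSG00000137809, chr15:68296532-68432163, minus strand) had 4.38, 4.59 and 3.85 FPKM in control-labelled and 1.26, 1.28 and 1.41 FPKM in tau-labelled libraries 1, 2 and 3. The libraries of each group lay close together and the groups far apart. ITGA11 fell 3.52-fold by edgeR's fit (log2 fold change -1.82, SE 0.13, adjusted p = 1.4e-05), the smallest adjusted p among the 31.

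ITGA1 and ITGA2, the other collagen receptor subunits, lie beside each other on chromosome 5. ITGA1 (ENSG00000213949, chr5:52787916-52959209, plus strand) had 0.663, 0.789 and 1.06 FPKM in control-labelled and 1.42, 1.61 and 1.49 FPKM in tau-labelled libraries 1, 2 and 3, without overlap. It rose 1.67-fold by edgeR's fit (log2 fold change 0.74, SE 0.16, adjusted p = 0.00468). With GC content and length as an offset the log2 fold change of ITGA1 was 0.09 and the call was lost (edgeR adjusted p = 0.470). PELO, a gene of ribosome rescue, lies inside ITGA1 on the same strand with 19.6 ± 0.465 and 17.5 ± 1.69 FPKM (SD, n = 3 each), far above ITGA1, and did not pass (edgeR adjusted p = 0.0818). Reads in exons that the 2 genes share are uncertain for both.

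ITGA2 (ENSG00000164171, chr5:52989340-53094779, plus strand) had 2.56, 5.25 and 7.24 FPKM in control-labelled and 4.38, 5.81 and 4.84 FPKM in tau-labelled libraries 1, 2 and 3. The control-labelled libraries alone covered a wider range than the 3 tau-labelled ones, which lay within it. ITGA2 did not pass (log2 fold change -0.10, SE 0.29, edgeR adjusted p = 0.801), and its sign turned without control-labelled library 3 (0.22).

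The 4 leukocyte-type α subunits were low, yet each passed. ITGAX, the CD11c subunit of myeloid cells, was the most abundant of them. ITGAX (ENSG00000140678, chr16:31355134-31382932, plus strand) had 3.65, 4.07 and 3.26 FPKM in control-labelled and 1.51, 1.30 and 1.25 FPKM in tau-labelled libraries 1, 2 and 3, without overlap. It fell 2.93-fold by edgeR's fit (log2 fold change -1.55, SE 0.15, adjusted p = 5.9e-05).

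ITGAE, the αE subunit of lymphocytes in epithelia (ENSG00000083457, chr17:3714628-3801188, minus strand), had 2.19, 2.22 and 2.45 FPKM in control-labelled and 1.23, 1.63 and 1.65 FPKM in tau-labelled libraries 1, 2 and 3. It fell (log2 fold change -0.71, SE 0.16, edgeR adjusted p = 0.00559), while HASPIN, a histone kinase gene inside it on the opposite strand, rose (0.59, adjusted p = 0.0486). HASPIN, with 300 to 630 counts per library, overlaps ITGAE by 2797 bases, so reads there are uncertain for both. ITGAD, the αD subunit of macrophages, had a mean below 1 FPKM in both groups and fell, from 0.993 ± 0.131 to 0.477 ± 0.111 FPKM (SD, n = 3 each; edgeR adjusted p = 0.00261).

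ITGAM, the CD11b subunit, went the other way at a level close to 0. ITGAM was counted 0, 3 and 0 times in control-labelled and 22, 39 and 21 times in tau-labelled libraries 1, 2 and 3. It is among the genes said to have risen, but had enough counts to be tested only through the tau-labelled libraries. The ratio of tau-labelled to control-labelled counts, scaled by library size, was 27.7, with an exact 95% interval of 9.17 to 137 that covers counting error only (edgeR adjusted p = 0.00858). Both groups stayed under 0.11 FPKM in each library. ITGA4 and ITGA9, subunits of receptors for VCAM-1, tenascin and osteopontin, were not tested: ITGA4 had 0 counts in the control-labelled libraries and 20 in tau-labelled library 2 alone, and ITGA9 had 13 and 35 in the 2 groups.

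The α subunits that belong to leukocytes were read beside other markers of that and other cell types. Of 11 leukocyte markers, which include integrin genes, 4 reached 1 FPKM in a group, and their summed level was 173 to 198 FPKM in control-labelled and 90.3 to 108 FPKM in tau-labelled libraries. CD68, a lysosomal protein gene that many cultured lines express, made up most of it (151 ± 10.1 and 80.2 ± 7.34 FPKM, SD, n = 3 each; -1.03 on the log2 scale, edgeR adjusted p = 0.000175). CD74, a chaperone of antigen presentation, fell from 26.4 ± 4.09 to 15.0 ± 1.52 FPKM (edgeR adjusted p = 0.00114). ITGB2, without which CD11 subunits do not form leukocyte integrins, was near 0, at 0.0267 ± 0.0106 and 0.0146 ± 0.0139 FPKM. Of 7 endothelial markers, 1 reached 1 FPKM, with summed levels of 2.56 to 2.91 and 0.520 to 0.626 FPKM, and the leading genes PECAM1 (1.67 ± 0.283 and 0.174 ± 0.0352 FPKM) and VWF (0.631 ± 0.101 and 0.214 ± 0.0668 FPKM) fell.

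Of 12 epithelial markers, which also include laminin and integrin genes, 2 reached 1 FPKM, with summed levels of 23.3 to 27.1 and 11.7 to 12.4 FPKM. LAMB3, one of the genes described here, is the largest of them, KRT8 fell from 5.58 ± 0.565 to 1.05 ± 0.164 FPKM (SD, n = 3 each), and KRT14 was at 0. Of 11 smooth muscle and fibroblast markers, 6 reached 1 FPKM, with summed levels of 42.8 to 45.7 and 26.7 to 29.3 FPKM. PDGFRB, a growth factor receptor of pericytes, fell from 18.3 ± 1.77 to 3.87 ± 0.484 FPKM, and ACTA2, smooth muscle actin, had 11.5 ± 1.27 and 11.2 ± 0.963 FPKM. Of 9 neuron and oligodendrocyte markers, 1 reached 1 FPKM, with summed levels of 6.87 to 8.01 and 3.07 to 3.50 FPKM. GAP43, a growth cone protein, fell from 6.06 ± 0.673 to 1.46 ± 0.246 FPKM, SNAP25, a synaptic protein, had 0.704 ± 0.0698 and 0.701 ± 0.0792 FPKM, and MAG was at 0. MBP, a myelin protein, and SYN1, a synaptic vesicle protein, rose below 1 FPKM (0.0908 ± 0.0113 to 0.229 ± 0.0262 and 0.00901 ± 0.0156 to 0.153 ± 0.0222 FPKM, edgeR adjusted p = 0.00197 and 0.0159). Platelet markers, 4 genes of which 0 reached 1 FPKM, summed to 0.266 to 0.471 and 0.173 to 0.248 FPKM. GP1BA had 0.322 ± 0.0896 and 0.174 ± 0.0575 FPKM, GP6 stayed below 0.05 FPKM in mean, and GP9 was at 0. The summed levels of these lists of other cell types were lower in every tau-labelled library than in any control-labelled one. Single markers went both ways or did not pass. The leukocyte, epithelial and platelet sums include genes described here, so they partly restate those genes' own levels. In control-labelled libraries GAP43 made up most of the neuron and oligodendrocyte sum. The part of these lists in the results was not tested.

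Of the laminin chains, the one with the highest FPKM of each kind fell. LAMA5, the α chain of laminins made by many epithelia and vessels and a ligand of α3β1, was the leading α chain. LAMA5 (ENSG00000130702, chr20:62307955-62351989, minus strand) had 8.73, 6.91 and 5.64 FPKM in control-labelled and 4.33, 4.52 and 5.39 FPKM in tau-labelled libraries 1, 2 and 3. Control-labelled library 3 and tau-labelled library 3 came within a small distance of each other without overlapping. LAMA5 fell 1.63-fold by edgeR's fit (log2 fold change -0.70, SE 0.18, adjusted p = 0.0115), and without tau-labelled library 1 the call was lost (-0.63, edgeR adjusted p = 0.0535). ADRM1, with 14122 to 18882 counts per library, overlaps LAMA5 by 908 bases on the opposite strand, so reads there are uncertain.

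LAMA4, the α chain of vessel and muscle laminins, rose by a small amount. LAMA4 (ENSG00000112769, chr6:112107931-112254722, minus strand) had 1.61, 2.198 and 2.14 FPKM in control-labelled and 2.98, 2.85 and 2.63 FPKM in tau-labelled libraries 1, 2 and 3. The groups did not overlap (log2 fold change 0.39, SE 0.13, edgeR adjusted p = 0.0371). The call was lost when any 1 of the 6 libraries was left out, with edgeR adjusted p from 0.0503 without control-labelled library 2 to 0.125 without tau-labelled library 1. It was also lost with length as an offset (log2 fold change 0.10, edgeR adjusted p = 0.508). With GC content and length as an offset it was lost too (log2 fold change 0.28, edgeR adjusted p = 0.0582).

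The 3 other α chains were below 1 FPKM. LAMA1, the α chain of the embryonic laminin, rose from 0.255 ± 0.0206 to 0.469 ± 0.0812 FPKM (SD, n = 3 each), by 0.75 on the log2 scale (SE 0.19, edgeR adjusted p = 0.0101). With length as an offset its log2 fold change was 0.39 and the call was lost (edgeR adjusted p = 0.136). LAMA3, an α chain of epithelial laminins, had 0.654 ± 0.152 and 0.859 ± 0.128 FPKM with overlap and did not pass (edgeR adjusted p = 0.250). LAMA2, the α chain of muscle basement membrane, had 0.0331 ± 0.0173 and 0.0490 ± 0.00874 FPKM and did not pass (edgeR adjusted p = 0.425).

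LAMB2, the β2 chain of synaptic and vascular laminins, had the highest mean FPKM of the laminin genes in both groups. LAMB2 (ENSG00000172037, chr3:49121114-49133050, minus strand) had 42.4, 41.5 and 36.0 FPKM in control-labelled and 23.1, 21.1 and 25.9 FPKM in tau-labelled libraries 1, 2 and 3. Each tau-labelled library was lower than each control-labelled one by a wide margin. LAMB2 fell 1.86-fold by edgeR's fit (log2 fold change -0.89, SE 0.13, adjusted p = 0.000568).

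LAMB3, the β3 chain of an epithelial laminin, fell as well. LAMB3 (ENSG00000196878, chr1:209614870-209652425, minus strand) had 19.4, 17.8 and 15.3 FPKM in control-labelled and 8.83, 8.73 and 9.62 FPKM in tau-labelled libraries 1, 2 and 3. The tau-labelled libraries were close to each other, and the groups did not overlap. LAMB3 fell 2.095-fold by edgeR's fit (log2 fold change -1.07, SE 0.13, adjusted p = 0.000273). LAMA3, its α partner, was scarce beside it: LAMB3 stood at 28.3 ± 9.91 times the FPKM of LAMA3 in control-labelled and 10.8 ± 2.34 times in tau-labelled libraries (SD, n = 3 each). These ratios rest on the implied gene lengths, 5003 bases for LAMB3 and 15695 for LAMA3.

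LAMB1 is the β1 chain of the classical laminin. LAMB1 (ENSG00000091136, chr7:107923799-108003213, minus strand) had 7.42, 8.53 and 7.79 FPKM in control-labelled and 8.66, 8.70 and 7.59 FPKM in tau-labelled libraries 1, 2 and 3. The groups overlapped and LAMB1 did not pass (log2 fold change -0.05, SE 0.10, edgeR adjusted p = 0.745). It passed as a fall with length as an offset (-0.43, edgeR adjusted p = 0.00889) and with GC content and length (-0.29, edgeR adjusted p = 0.00539). LAMB4, a rarely studied β chain, had 49 and 13 counts in the groups and did not pass (edgeR adjusted p = 0.247). All 13 were in tau-labelled library 2, and without that library LAMB4 passed as a fall (edgeR adjusted p = 0.0201).

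LAMC1, the γ chain that most laminins share, fell modestly. LAMC1 (ENSG00000135862, chr1:183023420-183145592, plus strand) had 27.0, 29.5 and 29.2 FPKM in control-labelled and 22.7, 22.5 and 18.5 FPKM in tau-labelled libraries 1, 2 and 3. The groups did not overlap, and the fall was 1.46-fold by edgeR's fit (log2 fold change -0.55, SE 0.10, adjusted p = 0.00229). LAMC3, a γ chain of brain and other tissues, had 3 and 0 counts and was not tested.

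The make-up of the α subunit RNA shifted from ITGA3 towards ITGA5 and ITGAV. The summed FPKM of all 16 α subunits was 530 ± 47.5 in control-labelled and 305 ± 25.3 in tau-labelled libraries (SD, n = 3 each). ITGA3 made up 69.1%, 68.7% and 67.4% of it in control-labelled and 58.9%, 57.5% and 59.9% in tau-labelled libraries 1, 2 and 3. ITGA5, although its own level fell, made up 20.7% ± 0.628 and 26.7% ± 0.445. ITGAV made up 1.31% ± 0.447 and 4.01% ± 0.716. Laminin-binding subunits together went from 74.5% ± 0.894 to 65.5% ± 0.955 and subunits that recognise arginine-glycine-aspartate from 21.97% ± 0.550 to 30.7% ± 0.521, with no overlap of the groups in either share. The collagen-binding subunits made up 2.22% ± 0.642 and 2.65% ± 0.377, with overlap.

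The β subunits moved the other way in sum, from 74.3 ± 1.10 to 106 ± 4.32 FPKM (SD, n = 3 each). ITGB1 made up 13.3%, 15.3% and 18.6% of the β subunit FPKM in control-labelled and 33.2%, 35.8% and 30.0% in tau-labelled libraries 1, 2 and 3. ITGB5 made up 61.0% ± 2.99 and 44.8% ± 3.53 and ITGB3 22.5% ± 0.355 and 21.7% ± 1.25. The share of ITGB5 was lower in every tau-labelled library, while its level did not pass the test. The ratio of ITGA3 to ITGB1, the 2 subunits of the α3β1 laminin receptor, was 39.9, 32.3 and 23.6 in control-labelled and 5.09, 4.27 and 6.21 in tau-labelled libraries 1, 2 and 3. That of ITGA5 to ITGB1, the fibronectin receptor, was 9.66 ± 2.57 and 2.35 ± 0.409 (SD, n = 3 each). Both ratios were lower in every tau-labelled library than in any control-labelled one. The ratios and the shares of α and β subunits rest on the implied gene lengths. Shares and ratios are given as descriptions and were not tested.

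**Figure D3:**
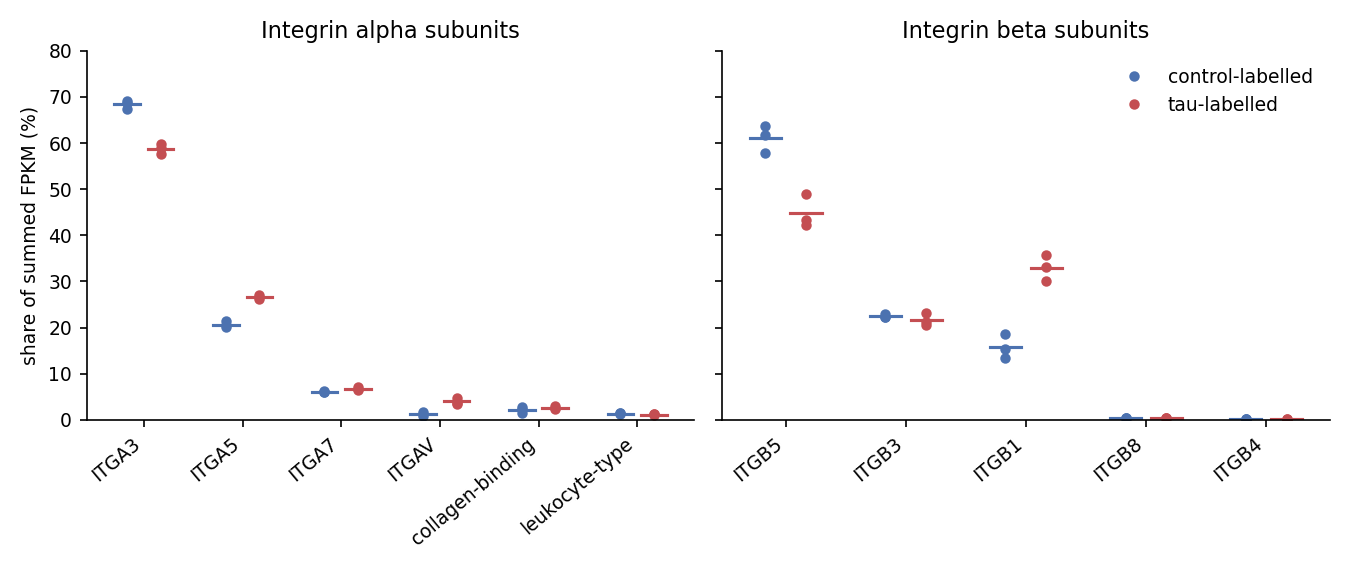
Share of the summed α subunit FPKM (left) and β subunit FPKM (right) held by the leading subunits or classes, in percent, with 1 point per library and a bar at each group's mean. ITGA3 goes from 68.4% to 58.7% of the α subunits, and ITGB1 from 15.7% to 32.97% of the β subunits.

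Among laminin chains the shares shifted between chains of the same kind. LAMA5 held 70.2% ± 7.54 of the α chain FPKM in control-labelled and 53.0% ± 5.11 in tau-labelled libraries (SD, n = 3 each). LAMA4 held 20.2% ± 5.06 and 31.6% ± 2.57. The summed α chain level was 10.02 ± 1.13 and 8.94 ± 0.189 FPKM. The β chains summed to 65.4 ± 5.46 and 40.7 ± 2.27 FPKM, and within them LAMB1 held 12.2% ± 1.28 and 20.5% ± 2.59 while LAMB3 held 26.7% ± 1.13 and 22.2% ± 0.435. LAMB2 led the β chains by FPKM in all 6 libraries, with 61.1% ± 0.220 and 57.2% ± 2.69. These laminin shares rest on the implied gene lengths, 20032 bases for LAMB1 and 7391 for LAMB2. By counts, LAMB1 lay above LAMB2 in tau-labelled library 1 (10356 against 10188) and tau-labelled library 2 (10168 against 9102), and below it in the other libraries.

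The fold changes of these genes varied with the GC content of their transcripts. Across the 31 tested genes the Spearman correlation of log2 fold change with GC content was -0.58, across the 19 genes above 1 FPKM it was -0.69, and across 17547 tested genes with a GC value it was -0.32. The genes share the same 6 libraries, so these are descriptions. The 12 genes that fell had a median GC content of 56.7% and the 7 that rose 50.5%, beside 54.8% and 45.2% among all genes that fell and rose. ITGB1, ITGAV and ITGA1, the risen genes above 1 FPKM with the lowest GC content, had 39.98%, 38.2% and 38.8%, and LAMA5, which fell, had 65.8%. ITGA2, at 40.2%, did not pass. The libraries also differed within a group: the correlation of GC content with each library's deviation from the mean of the 6 was 0.47, 0.26 and 0.02 in control-labelled and -0.31, -0.41 and -0.07 in tau-labelled libraries 1, 2 and 3. With GC content and length as an offset, 16 of the 19 calls held, 4 rises and 12 falls. The 3 lost were ITGA1, ITGAV and LAMA4. What made GC content move with the groups was not tested.

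**Figure D4:**
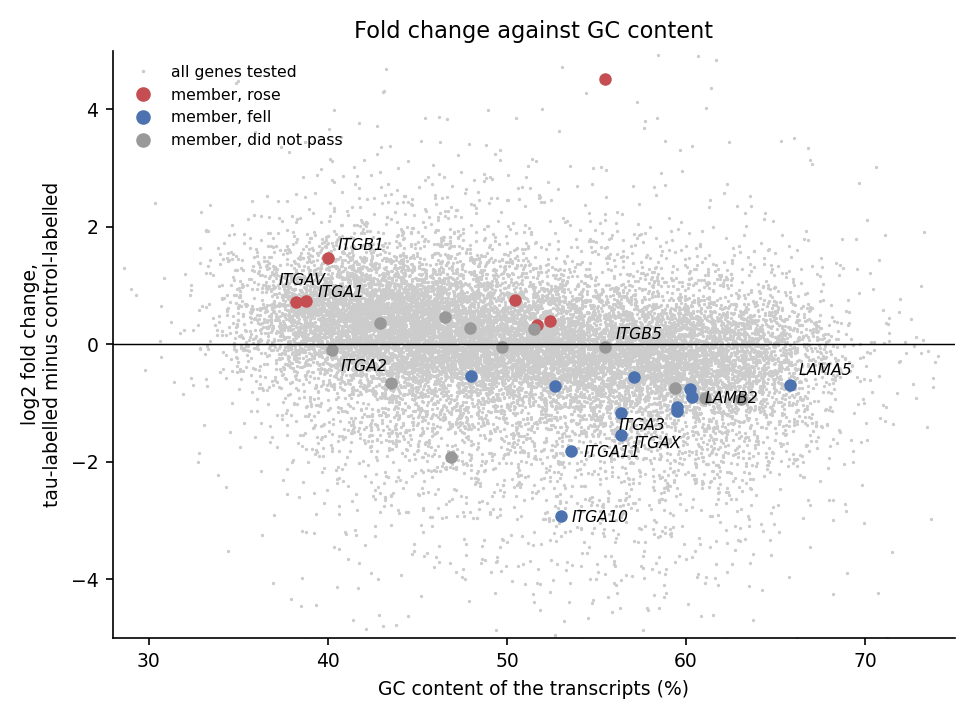
Log2 fold change, tau-labelled minus control-labelled, against the GC content of the transcripts in percent, for the tested genes that have a GC value (grey) and the tested integrin and laminin genes (coloured by call). Of these, the axes leave out 104 genes beyond a log2 fold change of 5 or outside 28% to 75% GC. ITGB1, ITGAV and ITGA1 lie high at the left, and most genes that fell lie at the right.

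Control-labelled library 3 lay nearest to the tau-labelled libraries for 8 of the 12 genes that fell and for 3 of the 7 that rose. Among all tested genes it was the nearest for 51.6% of those that fell and 56.4% of those that rose. Control-labelled library 1 lay farthest for 6 of the 12 and 5 of the 7, as for 46.1% and 51.2% of all such genes. The spread of the 19 genes above 1 FPKM, as the median SD of log2 counts scaled by library size, was 0.19 in control-labelled and 0.15 in tau-labelled libraries, beside 0.22 and 0.20 over all tested genes.

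The genes of proteins that lie around laminins in basement membranes fell or did not pass at the RNA level. Of 17 tested partners of laminins, 0 rose, 9 fell and 8 did not pass (median log2 fold change -0.97), beside 21.3% rising, 21.4% falling and a median of 0.00 over all tested genes. SPARC, a collagen-binding matrix protein, fell from 360 ± 22.3 to 120 ± 4.91 FPKM (SD, n = 3 each), a log2 fold change of -1.70 with SE 0.09 (edgeR adjusted p = 3.17e-06). HSPG2, the proteoglycan perlecan that binds laminin, fell from 6.02 ± 1.60 to 1.36 ± 0.126 FPKM, by -2.27 on the log2 scale (SE 0.21, edgeR adjusted p = 5.31e-05). NID2, a nidogen that links laminin to collagen IV, fell from 16.1 ± 0.814 to 7.67 ± 0.561 FPKM, by -1.19 on the log2 scale (SE 0.11, edgeR adjusted p = 6.19e-05). Its relative NID1 was below 0.05 FPKM. COL4A1, the main collagen IV chain in most tissues, was listed at 0 in all 6 libraries.

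Receptors of laminin outside the integrin family, with the enzymes that glycosylate dystroglycan, moved in both directions. Of 22 tested genes 5 rose, 10 fell and 7 did not pass (median log2 fold change -0.21), beside 21.3% and 21.4% of all tested genes. The count of rises, which is near that share, was 3 without control-labelled library 2, and also without tau-labelled library 2. DAG1, dystroglycan itself, had 27.2 ± 1.80 and 27.5 ± 0.550 FPKM (SD, n = 3 each) and did not pass (edgeR adjusted p = 0.457). UTRN, utrophin, which ties dystroglycan to actin, rose (log2 fold change 1.34, edgeR adjusted p = 0.000565), as did the mannosyltransferases POMT2 (0.48, adjusted p = 0.00619) and POMT1 (0.74, adjusted p = 0.00931). SNTB1, a syntrophin, fell (log2 fold change -2.03, edgeR adjusted p = 1.41e-05). B4GAT1, a glucuronyltransferase of the dystroglycan glycan, fell from 38.2 ± 2.95 to 15.5 ± 1.25 FPKM (-1.42, adjusted p = 5.03e-05), and SDC2, a syndecan, from 12.9 ± 1.06 to 6.55 ± 0.318 FPKM (-1.09, adjusted p = 6.81e-05).

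Of 35 tested ligands of integrins other than laminins, 6 rose, 16 fell and 13 did not pass (median log2 fold change -0.37), where 21.3% and 21.4% of all tested genes did. COL6A3, a collagen VI chain, fell from 61.5 ± 4.20 to 21.0 ± 0.151 FPKM (SD, n = 3 each), by -1.67 on the log2 scale (edgeR adjusted p = 4.69e-06). COL5A1, a collagen V chain, fell from 30.8 ± 3.19 to 9.44 ± 0.254 FPKM (-1.83, adjusted p = 7.9e-06), and JAM2, a junctional adhesion molecule, from 3.77 ± 0.184 to 0.478 ± 0.0401 FPKM (-3.08, adjusted p = 1.35e-06). CCN3, a matricellular protein, rose from 8.99 ± 1.05 to 32.3 ± 3.64 FPKM (1.72, edgeR adjusted p = 1.15e-05). SPP1, osteopontin, rose (0.67, edgeR adjusted p = 0.00103), and so did ICAM1, a ligand of leukocyte integrins (0.89, adjusted p = 0.00213). FN1, fibronectin, the ligand of α5β1, had 55.5 ± 5.80 and 52.9 ± 3.01 FPKM and did not pass (edgeR adjusted p = 0.175).

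Inside the cell, 5 of 40 tested adaptors and kinases of focal adhesions rose, 14 fell and 21 did not pass (median log2 fold change -0.13), against 21.3% rising and 21.4% falling over all tested genes. APBB1IP, which links the GTPase RAP1 to talin, rose from 2.95 ± 0.281 to 7.33 ± 0.373 FPKM (SD, n = 3 each), by 1.19 on the log2 scale (edgeR adjusted p = 0.000177). TLN2, the second talin gene, rose (0.78, edgeR adjusted p = 0.00127), as did RAP1B (0.53, adjusted p = 0.00286). TNS1, a tensin that binds β subunit tails, fell from 4.71 ± 0.446 to 0.520 ± 0.0381 FPKM (-3.29, edgeR adjusted p = 8.08e-07). SHARPIN, which holds integrins inactive, fell (-1.08, edgeR adjusted p = 0.00106), as did the actin regulator VASP (-0.63, adjusted p = 0.00341). TLN1, VCL, PXN, ZYX and PTK2, which encode talin, vinculin, paxillin, zyxin and focal adhesion kinase, did not pass, with log2 fold changes from -0.13 to 0.18, while ILK, integrin-linked kinase, and ACTN4, an actinin, fell (-0.50 and -0.38, edgeR adjusted p = 0.0146 and 0.029). The count of falls was 8 without tau-labelled library 1, and also without tau-labelled library 2.

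Of 17 tested genes of integrin trafficking, 5 rose, 6 fell and 6 did not pass (median log2 fold change -0.17). Rises and falls over all tested genes were 21.3% and 21.4%, so neither count stands far from the background. ARF6 and RAB21, small GTPases that move integrins to and from the surface, rose (log2 fold changes 0.56 and 0.52, edgeR adjusted p = 0.00302 and 0.00587), as did SWAP70 (0.85, adjusted p = 0.000993). SNX17, a sorting nexin that returns β1 integrins from endosomes, fell (-0.53, edgeR adjusted p = 0.00879), as did RCC2 (-0.56, adjusted p = 0.00158) and HAX1 (-0.57, adjusted p = 0.00447). The count of rises was 3 without control-labelled library 2, and also without tau-labelled library 2.

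Of 14 tested tetraspanins and other membrane partners of integrins, 2 rose, 4 fell and 8 did not pass (median log2 fold change -0.21), counts near the 21.3% and 21.4% of all tested genes. SLC3A2, the CD98 heavy chain that binds β1 tails, rose from 20.8 ± 1.47 to 40.9 ± 3.88 FPKM (SD, n = 3 each), by 0.86 on the log2 scale (edgeR adjusted p = 0.000495). PLAUR, the urokinase receptor, rose (0.55, edgeR adjusted p = 0.00985). EMP2, TSPAN4 and BSG fell (log2 fold changes -0.65, -0.51 and -0.38, edgeR adjusted p = 0.00153, 0.0111 and 0.0275). CD151, the tetraspanin that binds α3β1 most tightly, had 126 ± 6.46 and 127 ± 15.7 FPKM and did not pass (edgeR adjusted p = 0.555). The count of falls was 2 without control-labelled library 1, 2 without control-labelled library 2, 2 without tau-labelled library 1, 1 without tau-labelled library 2 and 7 without tau-labelled library 3.

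**Figure D5:**
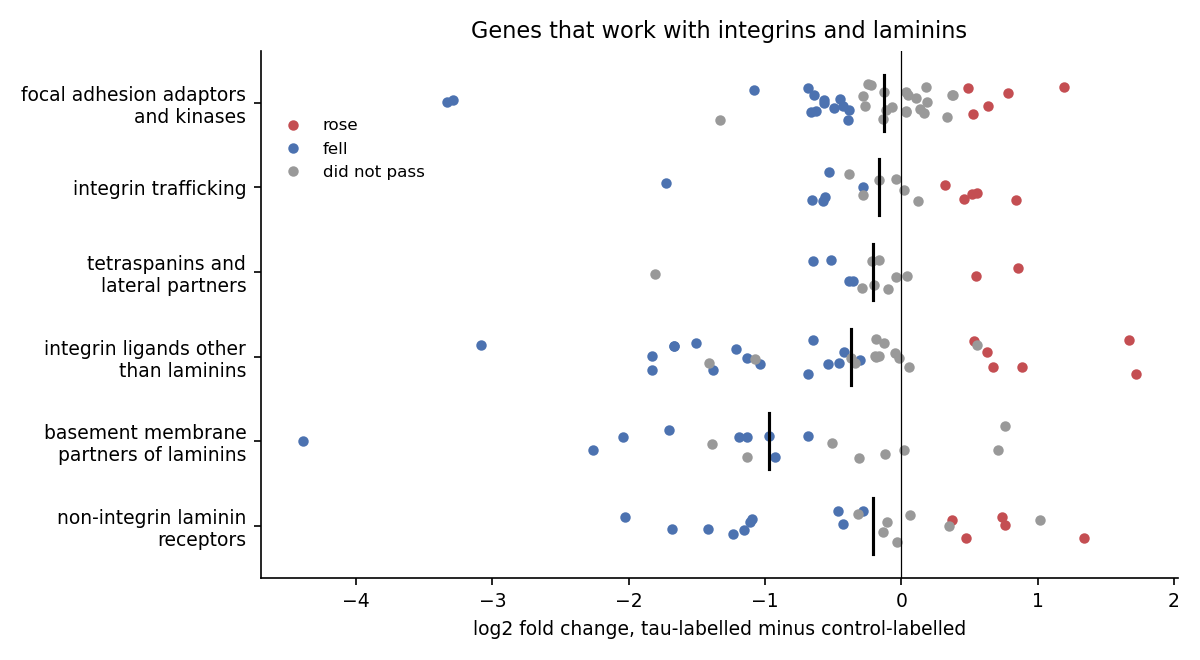
Log2 fold change, tau-labelled minus control-labelled, of each tested gene in 6 lists of genes that work with integrins and laminins, with 1 point per gene coloured by call and a black bar at each list's median. Basement membrane partners hold 0 rises and 9 falls, and the other 5 lists hold both.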

How the data were processed

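The members and gene lists were chosen with earlier results of these data known. The authors' deposited table holds counts and FPKM of each gene in 6 libraries, 3 per label, and its columns were matched to samples by title. The submitters' processing notes list HISAT2 2.2.1, StringTie 2.1.6 and cutadapt 1.9, the build GRCh38, and DESeq2 and edgeR without a role. Not given in the sources used here were the annotation, the counting tool and its use of strand. In the deposited counts, values of 4 (6724) outnumber values of 1 (5596), 2 (4435) or 3 (3295), so counts may derive from read coverage. Intervals that treat them as reads may then be too narrow. The deposited FPKM equals the count divided by 1 length for each gene and 1 scaling factor for each library, within 1% for 99.9% of ratios over 10677 genes with over 200 counts in each library. FPKM therefore served for levels and counts for tests.

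The test was run with edgeR 4.0.16 (R 4.3.3) on the counts, after filterByExpr (minimum count 10, minimum total 15) and TMM scaling, by the two-sided quasi-likelihood test with the label as the only term, adjusted by Benjamini-Hochberg over 17927 genes. A call needs an adjusted p below 0.05. Fold changes come from the fit, which carries TMM scaling, and so differ from ratios of mean FPKM. No library was dropped. DESeq2 1.42.0, limma 3.58.1 on log2(FPKM + 0.5), log2(FPKM + 0.1) and log2(TPM + 0.5), other scalings and filters, gene length, stricter thresholds, the replicate number as a block and each library left out were alternatives. Offsets for GC content with length (GENCODE 29 transcripts, lowess span 0.3) and the sum of ITGB1 with its pseudogene were added after the data were seen. On simulated counts the fit called 5 of 67 changes of 0.5 on the log2 scale, 40 of 67 of 1 and 59 of 66 of 2. All had the right sign, and 9 unchanged genes were called. Few genes were changed in that simulation, unlike in the data, so its rates need not hold here. A gene that did not pass may still have changed by a small amount.

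Of the members, 1 that was tested and counted is not reported here by name; every other member is accounted for. Values per library are given for members that pass and reach a mean of 1 FPKM in 1 group, and for the most abundant subunit of each kind. ITGA2 and LAMB1 were added to these after their values were seen, as the other members at that level. In each list the 3 genes with the smallest p in each direction at that level are named, and in marker lists the 2 most abundant. MAPT, ITGB1P1, ITGB1-DT, PELO, HASPIN, GALK1, ZNF740, ADRM1, DAG1, FN1, NID1, COL4A1, CD151, ITGB2, MBP, SYN1, EGFR, NES, SLC1A3, CD44, GFAP, S100B, SOX2, FABP7, PTPRZ1, GP6 and markers at 0, and TLN1, VCL, PXN, ZYX, PTK2, ILK and ACTN4 fall outside that rule and were chosen after their values were seen.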

Additional observations from a re-analysis of the deposited data

How the results depend on the processing

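The 19 calls among integrin and laminin genes rested on few choices. Stricter thresholds aside, 18 other fits were run, and 13 of these calls were made in each of those in which the gene was tested. They were ITGA3, ITGA5, ITGA7, ITGA10, ITGA11, ITGAD, ITGAE, ITGAM, ITGAX, ITGB1, LAMB2, LAMB3 and LAMC1. Of these, ITGA10, ITGAD and ITGAM were not tested by limma or in the edgeR fit limited to genes with a mean of at least 1 FPKM. The weakest of the 19 calls was LAMA4, lost in 12 of 20 settings, followed by ITGB3, lost in 8. With each library left out in turn, members that rose numbered 5 to 6, members that fell 11 to 13, and their median log2 fold change ran from -0.60 to -0.42. Over all genes, 2843 to 3803 then rose and 2892 to 3920 fell. In the same runs adaptors rose 4 to 6 and fell 8 to 14, basement membrane partners rose 0 to 1 and fell 8 to 10, non-integrin receptors rose 3 to 5 and fell 7 to 10, ligands rose 6 and fell 13 to 16, trafficking genes rose 3 to 5 and fell 4 to 7, and tetraspanins and partners rose 1 to 2 and fell 1 to 7.

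With GC content and length as an offset, 3902 of 17547 genes rose and 4590 fell. Of the members, 4 then rose and 13 fell, while 1 basement membrane partner and 2 trafficking genes rose. In that fit 10 trafficking genes and 8 tetraspanins and partners fell. With length alone, 3467 of 17927 genes rose and 4150 fell. Of the members, 4 then rose and 14 fell, with a median of -0.74. In that fit 2 adaptors, 2 trafficking genes and 2 receptors rose and 7 tetraspanins and partners fell. A threshold of 1 on the size of the log2 fold change left 1344 genes rising and 1801 falling, with 2 and 6 members, 1 and 3 adaptors, 2 and 10 ligands, 0 and 1 trafficking genes, 0 and 0 tetraspanins and partners, and 1 receptor rising. An adjusted p below 0.01 left 2456 and 2457 genes, with 4 members, 3 trafficking genes and 3 receptors rising and 7 adaptors, 4 receptors and 1 tetraspanin falling. Scaling by library size alone moved the median of all genes to 0.12 and of the members to -0.44. In that fit 4590 of 17927 genes rose and 3183 fell, with 8 adaptors and 1 basement membrane partner rising. By limma on log2(FPKM + 0.5), 4013 of 11129 genes rose and 2330 fell. The members' median was then -0.43, 8 adaptors rose and 4 receptors fell. On log2(FPKM + 0.1), 3980 genes rose and 2317 fell, with a members' median of -0.43, 8 adaptors and 4 receptors likewise. On log2(TPM + 0.5), where the median of all genes was 0.18, 4011 rose and 2140 fell. The members' median was then -0.41, 9 adaptors rose, and 4 receptors and 2 tetraspanins fell. Without a filter on low counts, 3218 of 30148 genes rose and 3183 fell, and 3 receptors rose and 2 tetraspanins fell. The limma fits were run on fewer genes; for the other shifts the cause was not tested.

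Values that changed sign belonged to genes that did not pass and to medians near 0. ITGB5 was at 0.062 with library size alone, 0.063 and 0.064 on the FPKM scales, 0.086 on TPM and 0.053 with GC content and length, and ran from -0.15 to 0.016 with a library left out. LAMB1 was at 0.067 with library size alone, 0.067 and 0.070 on the FPKM scales and 0.092 on TPM. ITGA2 was at 0.092 and 0.11 on the FPKM scales, 0.13 on TPM and 0.22 without control-labelled library 3. LAMA3 was at -0.039 with length and -0.0015 with GC content and length, and ITGB8 at -0.17 with the latter. The receptors' median was 0.000402 and 0.000311 on the FPKM scales and 0.023 on TPM, and the adaptors' median 0.022 on TPM.

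Libraries with the same number did not deviate together (correlations -0.0375, -0.0108 and -0.0938). The labels do not say whether they were prepared together, and these correlations cannot decide it. With the replicate block, 5 members rose and 12 fell, ITGB3 and LAMA4 no longer passing (edgeR adjusted p = 0.0907 and 0.0909), and 3181 genes rose and 3139 fell. Depth limits members with few counts: 3 counts over a group is the floor used, and ITGA2B, ITGA4, ITGB6 and LAMC3 had 0 counts in a group.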
